A study of Homo sapiens with 6 samples.

Results

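The 49 genes described here make up the Wnt pathway as a named list of ligands and their export proteins, receptors, inhibitors at the membrane, the Dishevelled proteins with the β-catenin destruction complex, and nuclear factors. The list was taken by gene symbol and not by any measured value, though earlier results of these data were known when it was chosen. All 49 were found among the 57992 gene IDs counted, and 46 had enough reads to be among the 16740 genes tested. The RNA came from OVCAR8 cells, a human line established from an ovarian carcinoma. All cells were plated in medium with 10% fetal bovine serum and then kept for 16 hours in medium without it. The first group, with 3 libraries numbered 1, 2 and 3, next received recombinant human relaxin-2 (RLN2), a peptide hormone of the insulin superfamily, at 50 ng/mL for 8 hours. The second group, with 3 libraries numbered 2, 3 and 4, was left untreated, and no vehicle is named for it. The labels do not say whether the libraries of a group came from separate cultures, so the p-values measure only the spread between these libraries, which may be technical.

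In the Wnt pathway, secreted lipid-modified ligands bind frizzled receptors and an LRP5 or LRP6 co-receptor, and Dishevelled proteins pass the signal on. Without a ligand, a destruction complex built on axin and APC marks β-catenin for degradation. With a ligand, β-catenin accumulates, enters the nucleus and works with TCF/LEF factors to activate genes, some of which feed back on the pathway. Other ligands act through frizzleds with ROR or RYK receptors and without β-catenin. In ovarian carcinoma the pathway is known mainly from tumours of the endometrioid type, where the gene of β-catenin is often mutated. These arrangements are background, since RNA levels do not show whether β-catenin is active.

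The libraries held 11939148 to 22426768 reads in genes. The relaxin-2 library numbered 2 stood apart, with 27.0% of its reads mapping to several places, against 5.31% to 6.19% in the other 5 libraries, and 5.37% of its gene reads in mitochondrial genes, against 0.859% to 1.41%. The untreated library numbered 2 stood apart in the share of gene reads in the small RNAs RN7SK, RN7SL1 and RN7SL2, at 0.263% against 0.676% to 0.926% elsewhere. It was the lowest library for 20 of the 46 tested members and the highest for 11. Over all tested genes the closest libraries were the relaxin-2 library 1 and the untreated library 4, which differed by a chi-square of 2.61 per degree of freedom, against 6.21 to 51.5 between libraries of 1 group. Results are therefore given with all 6 libraries and, for many members, also without the libraries numbered 2. Without the untreated library 2 the size of the log2 fold change, whatever its sign, was over 1.5 times smaller for 24 of the 46 tested members, and without both libraries numbered 2 for 30. Epithelial keratins (KRT8 at 454 to 1061 CPM) and PAX8, a lineage factor of ovarian carcinoma (39.2 to 70.7 CPM), were present in every library. KRT19 and MUC16 lay between 0 and 0.136 CPM, and the epithelial marker CDH1 between 0.630 and 1.44 CPM. Summed over 5 leukocyte markers the level was 0.278 to 0.610 CPM with relaxin-2 and 0.360 to 0.577 CPM without, with CD3E at 0 reads. The sum of 5 fibroblast markers, most of it PDGFRB, was 17.6 to 18.7 CPM with relaxin-2 and 10.5 to 18.0 CPM without, with DCN at 0 reads. The sum of 4 mesothelial markers, most of it MSLN, was 33.1 to 47.6 CPM with relaxin-2 and 11.4 to 32.6 CPM without, and its part in the values of the Wnt genes was not tested. Here CPM means a gene's read count scaled to its library's total over the tested genes, after TMM scaling (the trimmed mean of M values).

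OVCAR8 cells carried RNA for each step of the β-catenin pathway, while the feedback genes AXIN2, RNF43, NKD1 and NKD2 had few reads. ZNRF3, a relative of RNF43, and DKK1, also a target of β-catenin, had more, with 2105 and 8755 reads in all. Levels between genes are compared as CPM per kilobase of exon, with the mean of all 6 libraries. On that scale 9 of the 49 members reached 10 or more, 25 lay between 1 and 10, and 15 lay under 1. CTNNB1, the gene of β-catenin, was the highest at 57.0, followed by the frizzled FZD6 at 35.3, the secreted inhibitor DKK1 at 34.7 and CSNK1A1, a kinase of the destruction complex, at 34.1. AXIN2, RNF43, NKD1 and NKD2 lay at 0.126, 0.166, 0.0424 and 0.155, and ZNRF3 at 2.67. RNF43 and AXIN2 share exon length with other genes on their strand, so their levels are uncertain. SFRP1, a secreted inhibitor, had 0 reads in all 6 libraries, which allows at most 0.0264 CPM over their summed reads, counting error only.

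**Figure D1:**
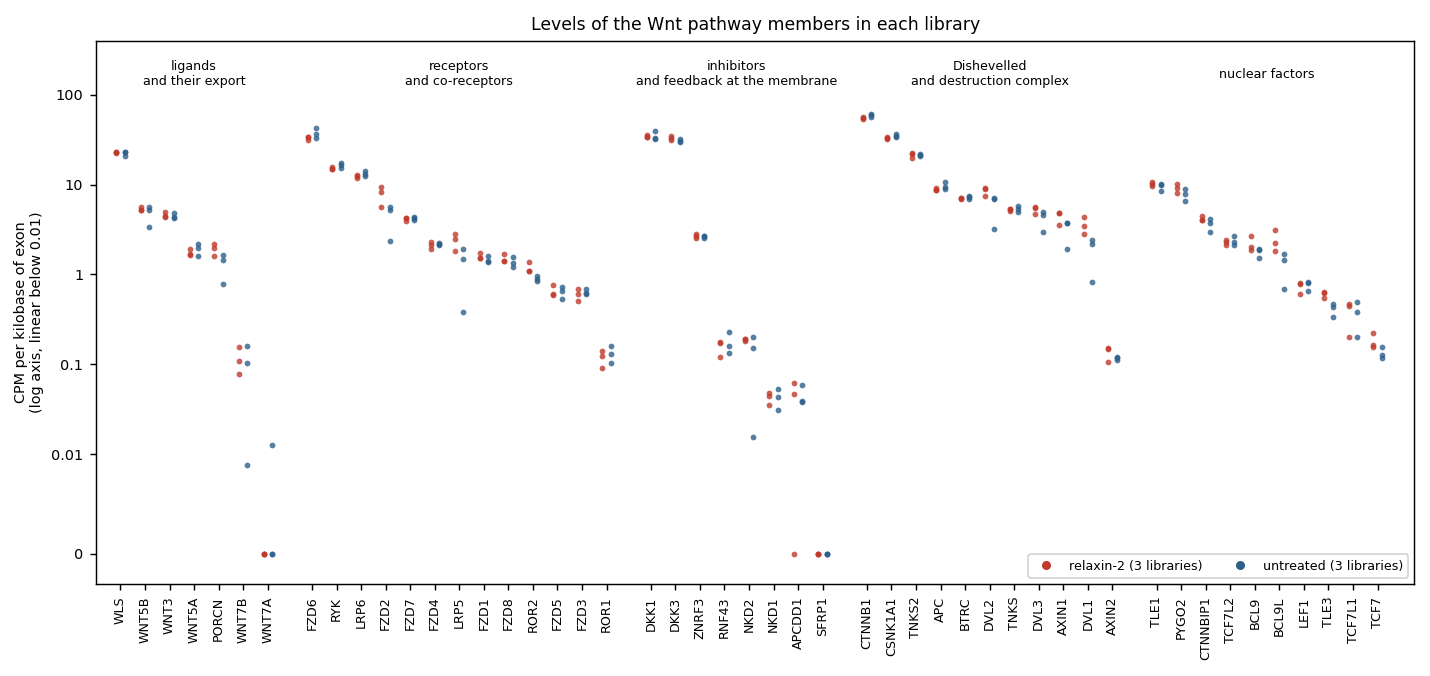
Level of each of the 49 members in each library as CPM per kilobase of exon (vertical axis, logarithmic above 0.01), grouped by role and ordered by level. Red points are the 3 relaxin-2 libraries and blue points the 3 untreated ones. CTNNB1 lies highest at a mean of 57.0, and 15 members lie under 1.

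No Wnt pathway member passed the adjusted p threshold of 0.05 with relaxin-2. Among the 46 tested, 28 had a higher and 18 a lower fitted level in relaxin-2 cells, and the median log2 fold change was 0.05, against -0.01 over all tested genes. The members with the smallest p all had higher values in relaxin-2 cells. They were TLE3 and BCL9L, which act on β-catenin target genes in the nucleus, the signal transducer DVL1, and the receptors ROR2 and FZD2. Their fitted ratios ran from 1.31 for ROR2 to 1.97 for DVL1, and none passed after adjustment over all genes. In RNA from whole cultures, fewer cells that express a gene and less RNA per cell cannot be told apart.

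By edgeR's quasi-likelihood test with Benjamini-Hochberg adjustment 0 of the 46 members passed, as did 0% of all 16740 genes, and the smallest adjusted p was 0.408 in both. At an unadjusted p under 0.05 there were 5 members, all higher, or 10.9% of those tested, beside 10.8% of all genes. DESeq2 also called 0 genes, with 6 members and 1677 genes at an unadjusted p under 0.05. The relaxin-2 and untreated libraries did not overlap for 6 members, all higher with relaxin-2, or 13.0%, beside 21.4% of all genes. The share of members at a small p was thus near that of all genes, and the share without overlap was below it.

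Both counts depended on single libraries. At an unadjusted p under 0.05 there was 1 member without the relaxin-2 library 2, 3 without the relaxin-2 library 3 and 9 without the untreated library 4, and there were 6 without both libraries numbered 2. As shares of the 46 members these were 2.17%, 6.52%, 19.6% and 13.0%, beside 2.83%, 3.64%, 20.8% and 7.54% of all genes in the same fits. The count of members without overlap was 20 without the relaxin-2 library 1, 11 without the untreated library 3, 20 without the untreated library 4 and 10 without both libraries numbered 2. These were 43.5%, 23.9%, 43.5% and 21.7% of the members, beside 46.9%, 29.6%, 43.6% and 34.2% of all genes. With no filter on low counts, 120 of 32406 genes passed edgeR's quasi-likelihood test after adjustment, 2 of them among the 48 members in that fit. These members were DVL1 and BCL9L, at adjusted p of 0.0483 and 0.0413 by edgeR's quasi-likelihood test. Over all alternatives their adjusted p ran from those values up to 0.766 for both.

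**Figure D2:**
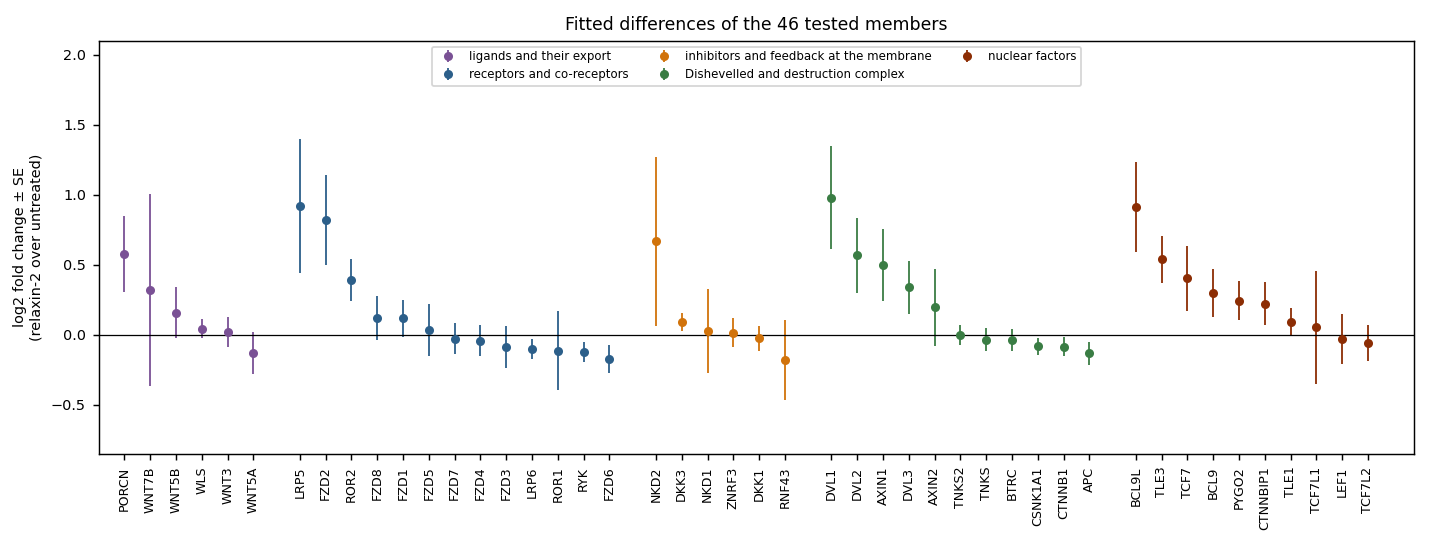
Fitted log2 fold change, relaxin-2 over untreated, of each of the 46 tested members (vertical axis), grouped by role. Points are edgeR estimates and bars are ± 1 standard error. DVL1 is highest at 0.98 and RNF43 lowest at -0.18, and the bars are longest for WNT7B and NKD2, which had few reads.

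Among the ligands, WNT5B, WNT3 and WNT5A were the ones with substantial RNA. WNT5B and WNT5A mostly signal without β-catenin, and WNT3 mostly through it. Per kilobase, WNT5B made 44.5% to 45.8% of the summed ligand RNA of the list with relaxin-2 and 34.9% to 46.4% without. WNT3 made 38.3% to 39.8% with relaxin-2 and 35.0% to 44.8% without. WNT7B stayed at or below 0.807 CPM in every library, and WNT7A had 1 read in all 6 libraries together and was not tested. The log2 fold changes of the ligands were 0.16 ± 0.18 (SE) for WNT5B, 0.02 ± 0.11 for WNT3, -0.13 ± 0.15 for WNT5A and 0.32 ± 0.69 for WNT7B.

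The most abundant gene of ligand export was WLS, the carrier that takes Wnt proteins to the cell surface. WLS had 102, 103 and 103 CPM in the relaxin-2 libraries 1, 2 and 3, against 103, 93.1 and 102 CPM in the untreated libraries 2, 3 and 4. The groups overlapped and its log2 fold change was 0.04 ± 0.07. Values of single libraries follow this order throughout, and log2 fold changes are given ± SE. PORCN, the enzyme that attaches the lipid to Wnt proteins, had 4.90, 6.01 and 6.59 CPM in relaxin-2 cells, against 2.39, 5.003 and 4.38 CPM in untreated cells. The relaxin-2 library 1 lay just under the untreated library 3, so the groups overlapped, and the untreated library 2 was the lowest of all. The log2 fold change of PORCN was 0.58 ± 0.27, and 0.30 without both libraries numbered 2.

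FZD6 was the dominant frizzled. It had 138, 128 and 139 CPM in relaxin-2 cells, against 174, 147 and 135 CPM in untreated cells. The untreated library 2 was the highest and the groups overlapped, with a log2 fold change of -0.17 ± 0.10. It was -0.06 without the untreated library 2 and -0.02 without both libraries numbered 2. Per kilobase FZD6 made 61.2% to 67.2% of the RNA of the 8 frizzleds with relaxin-2 and 67.0% to 77.2% without, and FZD2 and FZD7 came next.

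FZD2 (ENSG00000180340, chr17:44557459-44559570 on GRCh38), a frizzled that binds several Wnt proteins, had a fitted ratio of 1.77 (95% interval 1.05 to 2.96). It had 12.02, 19.7 and 17.7 CPM in relaxin-2 cells, against 4.997, 11.1 and 11.9 CPM in untreated cells. The groups did not overlap, but the relaxin-2 library 1 and the untreated library 4 nearly met at 12.02 and 11.9 CPM. Its log2 fold change was 0.82 ± 0.32 with all libraries, 0.51 without the untreated library 2 and 0.39 without both libraries numbered 2. The other frizzleds, FZD1, FZD3, FZD4, FZD5, FZD7 and FZD8, had log2 fold changes between -0.09 and 0.12, each within 1 standard error of 0. FZD4 shares its place with exons of PRSS23 on the other strand, where 20.4% of the reads over the gene lay.

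The co-receptor RNA was mainly LRP6, at 80.9% to 87.6% of LRP5 and LRP6 together with relaxin-2 and 86.7% to 97.4% without. LRP6 differed by a log2 fold change of -0.10 ± 0.07, and by -0.02 without both libraries numbered 2. LRP5 had 11.2, 17.4 and 15.4 CPM in relaxin-2 cells, against 2.39, 9.08 and 11.9 CPM in untreated cells. The groups overlapped between 11.2 and 11.9 CPM, and the untreated library 2 was far below the rest, with 53 reads. The log2 fold change of LRP5 was 0.92 ± 0.48 (95% interval -0.18 to 2.02), 0.48 without the untreated library 2 and 0.37 without both libraries numbered 2.

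Of the receptors for β-catenin-independent signals, RYK was the most abundant at 15.8 CPM per kilobase, with a log2 fold change of -0.12 ± 0.07, and -0.06 without both libraries numbered 2. ROR2 (ENSG00000169071, chr9:91563091-91950162), a receptor tyrosine kinase that binds WNT5A, had 6.40, 8.01 and 6.36 CPM in relaxin-2 cells, against 4.95, 5.53 and 5.25 CPM in untreated cells. The groups did not overlap, and this was the member whose untreated libraries lay closest together among the 6 without overlap. The log2 fold change of ROR2 was 0.39 ± 0.15, 0.34 without the untreated library 2 and 0.25 without both libraries numbered 2. Its relative ROR1 stayed near 1 CPM, with -0.11 ± 0.28.

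**Figure D3:**
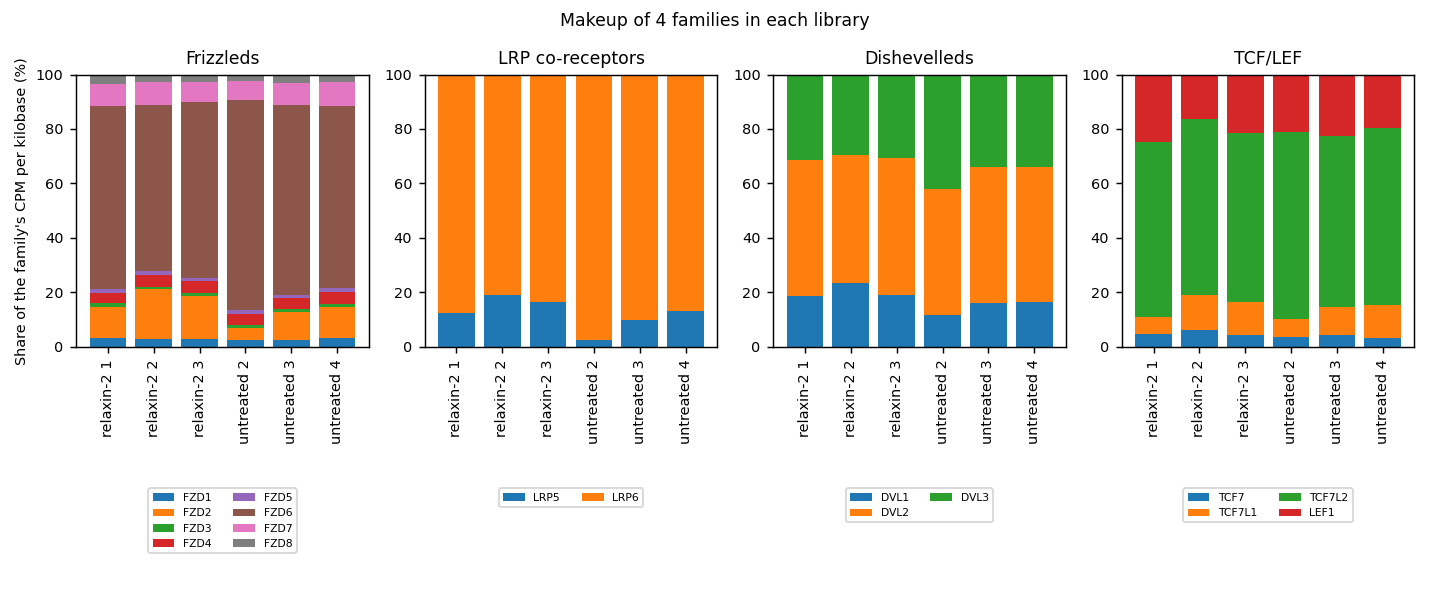
Share of each gene in the summed CPM per kilobase of its family (vertical axis, percent) in the 3 relaxin-2 libraries and, to their right, the 3 untreated ones, for the frizzleds, the LRP co-receptors, the Dishevelleds and the TCF/LEF factors. FZD6, LRP6, DVL2 and TCF7L2 hold the largest share in all 6 libraries, and the untreated library 2 has the smallest shares of FZD2 (4.27%), LRP5 (2.64%) and DVL1 (11.6%).

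The inhibitors that OVCAR8 cells expressed at high levels were DKK1 and DKK3, and neither differed beyond the spread of the libraries. DKK1, which blocks LRP5 and LRP6 and is itself a target of β-catenin, had 78.5, 74.1 and 75.3 CPM in relaxin-2 cells, against 86.7, 73.1 and 71.8 CPM in untreated cells. The untreated libraries enclosed the relaxin-2 ones, and the log2 fold change was -0.02 ± 0.09 (95% interval -0.23 to 0.18). DKK3, a divergent relative, had 0.09 ± 0.06. ZNRF3, a ubiquitin ligase that removes frizzleds from the surface, was moderately expressed at 2.67 CPM per kilobase with 0.02 ± 0.10, while its relative RNF43 had -0.18 ± 0.29 at 141 reads in all. RNF43 shares 59.6% of its exon length with other annotated genes on its strand, so its reads are uncertain. The Dishevelled-binding inhibitors NKD1 and NKD2 had 85 and 49 reads in all, with 0.03 ± 0.30 and 0.67 ± 0.60. The value of NKD2 was 0.12 without the untreated library 2, where it had 1 read, and 0.15 without both libraries numbered 2. APCDD1, an inhibitor at the membrane, had 30 reads in all and was not tested.

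TCF/LEF proteins recognise a short core, of which only some forms were searched. Of the members with a promoter window at hand, only DKK1 held a searched form. The core was searched as CTTTGAA or CTTTGAT on both strands, in RefSeq windows of GRCh38.p14 from 250 bases before to 50 bases after each start. It was found in 1 of the 35 members with a window, or 2.86%, and in 6.98% of all 27305 windows. The window of DKK1 at chr10:52314031-52314330 on the plus strand is shown because it carries that match, in capitals, 95 bases before the start of transcription. A match is a description of letters and not evidence of binding.
DKK1: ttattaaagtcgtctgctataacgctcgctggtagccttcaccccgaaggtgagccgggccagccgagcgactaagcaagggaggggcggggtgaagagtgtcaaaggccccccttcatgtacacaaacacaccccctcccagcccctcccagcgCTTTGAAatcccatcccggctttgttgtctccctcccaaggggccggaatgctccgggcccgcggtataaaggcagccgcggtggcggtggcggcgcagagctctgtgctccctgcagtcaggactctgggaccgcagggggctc

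In the destruction complex and the steps above it, the abundant members differed by very little and with narrow error. CTNNB1 (ENSG00000168036, chr3:41194741-41260096) had 670, 647 and 663 CPM in relaxin-2 cells, against 721, 707 and 670 CPM in untreated cells. The groups met at 670 CPM, the relaxin-2 library 2 was the lowest and the untreated library 2 the highest. The log2 fold change was -0.08 ± 0.07, and its 95% interval ran from -0.24 to 0.07. APC, the scaffold that gives the complex its grip on β-catenin, had -0.13 ± 0.08. Both were at -0.04 without both libraries numbered 2. CSNK1A1, the kinase that starts the marking of β-catenin, had -0.08 ± 0.06, with 37.4% of its exon length shared with another annotated gene on its strand. BTRC, the ubiquitin ligase subunit that recognises the marked protein, had -0.04 ± 0.08. The tankyrases TNKS and TNKS2, which mark axin for degradation, had -0.03 ± 0.08 and -0.0021 ± 0.07.

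The Dishevelleds and AXIN1 had the higher values of this role in relaxin-2 cells. DVL1 (ENSG00000107404, chr1:1335276-1349350) had 10.7, 16.7 and 13.3 CPM in relaxin-2 cells, against 3.11, 8.38 and 9.17 CPM in untreated cells. The groups did not overlap, with the relaxin-2 library 2 highest and the untreated library 2 lowest. The fitted ratio of DVL1 was 1.97 (95% interval 1.10 to 3.54) and its log2 fold change 0.98 ± 0.37, with a Benjamini-Hochberg adjusted p of 0.408 by edgeR's quasi-likelihood test. That difference was 0.61 without the untreated library 2 and 0.47 without both libraries numbered 2.

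DVL2 (ENSG00000004975, chr17:7225341-7234545), the most abundant Dishevelled per kilobase, had 40.5, 47.3 and 48.7 CPM in relaxin-2 cells, against 17.4, 36.7 and 38.1 CPM in untreated cells. The groups did not overlap, and the untreated library 2 was again far below the rest. The log2 fold change was 0.57 ± 0.27, and 0.26 without both libraries numbered 2. DVL3 had 30.2, 35.0 and 35.7 CPM in relaxin-2 cells, against 18.8, 29.6 and 31.4 CPM in untreated cells, which overlapped, with 0.34 ± 0.19, and 0.12 without both libraries numbered 2.

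AXIN1, the scaffold of the complex, had 26.7, 36.4 and 36.5 CPM in relaxin-2 cells, against 14.3, 28.0 and 28.3 CPM in untreated cells. The relaxin-2 library 1 lay below the untreated libraries 3 and 4, so the groups overlapped, and the log2 fold change was 0.50 ± 0.26, or 0.18 without both libraries numbered 2. Its relative AXIN2, a feedback gene that β-catenin induces in many cell types, had only 9 to 17 reads in each library. AXIN2 had 0.556 to 0.784 CPM in relaxin-2 cells and 0.585 to 0.634 CPM in untreated cells, with a log2 fold change of 0.20 ± 0.28 (95% interval -0.44 to 0.83). A share of 25.2% of its exon length belongs to another annotated gene on its strand.

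**Figure D4:**
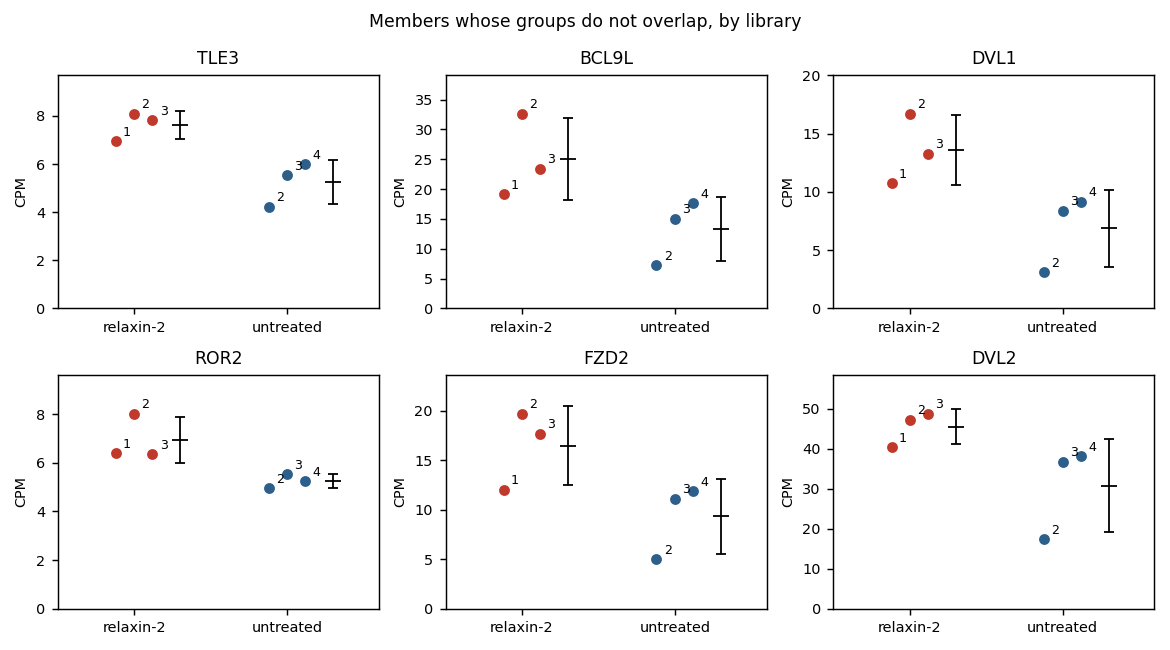
CPM in each library (points, labelled with the library number) of the 6 members whose groups do not overlap, relaxin-2 at the left and untreated at the right, with the mean and SD of 3 libraries beside them. In all 6 panels the untreated library 2 is the lowest point, and for ROR2 the untreated points lie within 4.95 to 5.53 CPM.

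Among the nuclear factors the corepressor TLE1 was the most abundant and TCF7L2 the main TCF. TLE1 had 47.6, 50.4 and 52.6 CPM in relaxin-2 cells, against 41.8, 50.5 and 49.1 CPM in untreated cells. The groups overlapped, with a log2 fold change of 0.09 ± 0.10, and 0.02 without both libraries numbered 2. TCF7L2 made 62.3% to 64.8% of the TCF/LEF RNA per kilobase with relaxin-2 and 62.8% to 68.7% without. TCF7L2, LEF1 and TCF7L1 had log2 fold changes of -0.06 ± 0.13, -0.03 ± 0.18 and 0.05 ± 0.40. TCF7 had 0.40 ± 0.23, but 77.3% of the reads over this gene lay on the other strand, where SKP1 runs, and with counts that ignore strand its log2 fold change was 0.05.

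TLE3 (ENSG00000140332, chr15:70047790-70098176), a corepressor of the same family as TLE1, had the smallest p of all members. It had 6.96, 8.10 and 7.82 CPM in relaxin-2 cells, against 4.23, 5.53 and 6.00 CPM in untreated cells. The groups did not overlap. The log2 fold change of TLE3 was 0.54 ± 0.17 (unadjusted p = 0.013 by edgeR's quasi-likelihood test), 0.40 without the untreated library 2 and 0.37 without both libraries numbered 2.

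The co-activator adaptors that link β-catenin to PYGO proteins were uneven. BCL9L (ENSG00000186174, chr11:118893875-118925608) had 19.1, 32.7 and 23.5 CPM in relaxin-2 cells, against 7.29, 15.01 and 17.6 CPM in untreated cells. The groups did not overlap, with both libraries numbered 2 at the extremes, and the log2 fold change was 0.91 ± 0.32 (ratio 1.88, 95% interval 1.12 to 3.15), 0.60 without the untreated library 2 and 0.40 without both libraries numbered 2. Its relative BCL9 had 12.02, 17.3 and 13.1 CPM in relaxin-2 cells, against 9.90, 12.2 and 12.2 CPM in untreated cells.

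The groups of BCL9 overlapped through the relaxin-2 library 1, with 0.30 ± 0.17, and 0.05 without both libraries numbered 2. PYGO2, which binds the adaptors and histone H3, had 29.6, 36.9 and 33.5 CPM in relaxin-2 cells, against 23.6, 28.5 and 32.2 CPM in untreated cells. Those groups overlapped too, with 0.24 ± 0.14, and 0.07 without those libraries. CTNNBIP1, an inhibitor that keeps β-catenin from TCF proteins, had 0.22 ± 0.15, and 0.13 without those libraries. Of the 10 nuclear factors 8 had a higher fitted level, with a median log2 fold change of 0.23, but only TLE3 and BCL9L had groups that did not overlap, or 20% of them, beside 21.4% of all genes.

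Most members with higher values in relaxin-2 cells had GC-rich transcripts. Across the 46 tested genes the log2 fold change followed the GC content of the gene's transcripts, with Pearson's r of 0.78 and Spearman's rho of 0.83. The same relation over 16673 tested genes gave 0.71 and 0.73. Genes of the same libraries are not independent replicates, so no p is given. Of the 23 members with a GC content of 54.1% or more, 22 had a higher fitted level and 1 a lower one, with a median log2 fold change of 0.32. Of the 23 with less, 6 had a higher and 17 a lower one, with a median of -0.04. The same cut over all tested genes gave a like split. At or above it 4713 of 5154 genes had a higher fitted level, with a median of 0.35. Below it 3266 of 11519 did, with a median of -0.10.

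Pairs of related genes, named after values were seen, describe the same fold changes again and are no separate evidence. In 9 of 10 pairs of relatives the member with the higher GC content had the higher log2 fold change, among them LRP5 (62.3% GC, 0.92) with LRP6 (46.7% GC, -0.10), BCL9L (64.6% GC, 0.91) with BCL9 (54.9% GC, 0.30), and WNT5B (60.1% GC, 0.16) with WNT5A (46.9% GC, -0.13). The exception was TNKS with TNKS2. The first 120 coding bases of 4 members, from the GENCODE release 29 transcripts on GRCh38 with every G and C in capitals, show how far these genes differ in composition. They are the co-receptors LRP5 (chr11:68312609-68449275, plus strand) and LRP6 (chr12:12116025-12267012, minus strand), and the members with the highest and the lowest log2 fold change among the Dishevelleds and the destruction complex, DVL1 (chr1:1335276-1349350, minus strand) and APC (chr5:112707498-112846239, plus strand). In these stretches G and C make 77.5% of LRP5, 55.8% of LRP6, 62.5% of DVL1 and 39.2% of APC, and over the whole coding sequence 63.6%, 46.5%, 65.9% and 41.2%.
LRP5: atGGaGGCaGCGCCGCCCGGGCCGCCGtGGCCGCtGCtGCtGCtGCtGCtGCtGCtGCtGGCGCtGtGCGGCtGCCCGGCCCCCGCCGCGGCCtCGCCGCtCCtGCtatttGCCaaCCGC
LRP6: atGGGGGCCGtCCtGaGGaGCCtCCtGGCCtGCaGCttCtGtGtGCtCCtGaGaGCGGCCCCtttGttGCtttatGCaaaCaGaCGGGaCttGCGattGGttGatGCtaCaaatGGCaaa
DVL1: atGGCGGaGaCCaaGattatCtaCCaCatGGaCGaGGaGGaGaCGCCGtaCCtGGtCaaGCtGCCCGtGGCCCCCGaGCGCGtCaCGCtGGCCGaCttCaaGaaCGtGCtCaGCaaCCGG
APC: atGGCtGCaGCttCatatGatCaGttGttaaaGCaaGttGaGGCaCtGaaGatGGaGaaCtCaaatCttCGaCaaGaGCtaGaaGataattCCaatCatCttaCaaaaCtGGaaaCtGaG

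The relation with GC content was also present between libraries of the same group. Each library's deviation of the members from their mean log2 level correlated with GC content at r = 0.22, 0.74 and 0.67 in the relaxin-2 libraries 1, 2 and 3, against -0.79, -0.03 and 0.35 in the untreated libraries 2, 3 and 4. When each library's trend on GC content and transcript length was removed, the median of the 23 GC-rich members was -0.07 and that of the other 23 was 0.03. The sign of 23 of the 46 members then differed from that without the correction. LRP5, DVL1, BCL9L, DVL2 and FZD2 kept a higher level, at 0.49, 0.38, 0.31, 0.24 and 0.22. TLE3 and ROR2 were at 0.10 and 0.24, and their unadjusted p by edgeR's quasi-likelihood test was 0.45 and 0.085, above the threshold of 0.05. The 5 named before them, with WNT5B at -0.24 and ZNRF3 at -0.40, then had an unadjusted p under 0.05 by that test. These were 15.2% of the tested members, beside 10.5% of all genes in the same fit. After adjustment by edgeR's quasi-likelihood test 0 members passed.

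**Figure D5:**
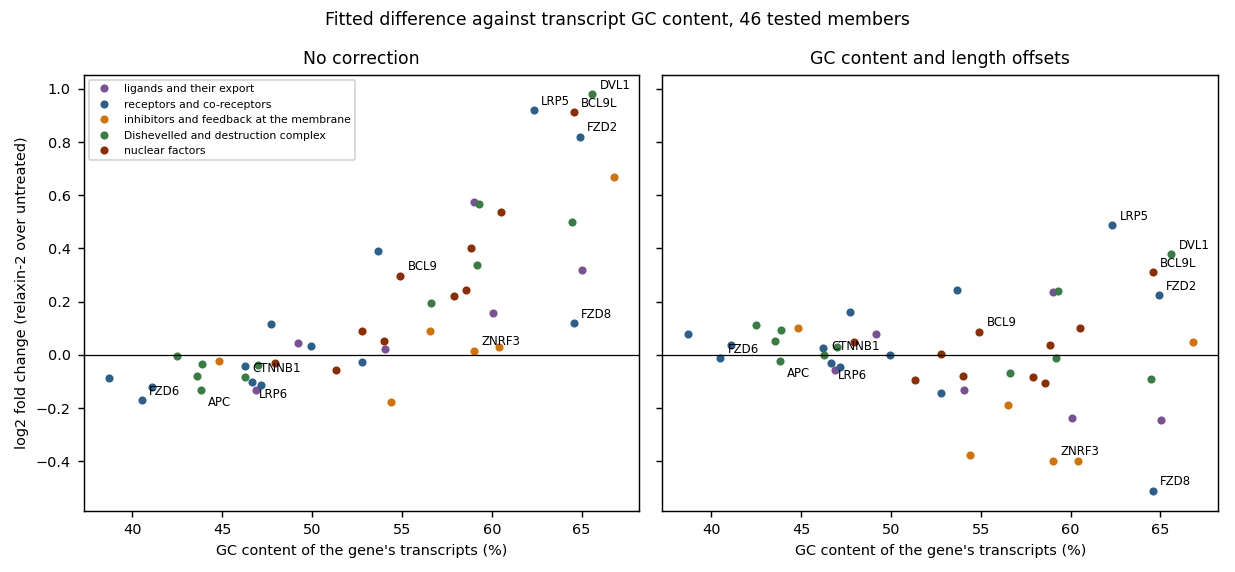
Log2 fold change, relaxin-2 over untreated, of the 46 tested members (vertical axis) against the GC content of their transcripts in percent (horizontal axis), coloured by role, before (left) and after (right) each library's trend on GC content and length was removed. At the left DVL1, LRP5, BCL9L and FZD2 lie between 0.82 and 0.98 at a GC content of 62.3% or more, and at the right between 0.22 and 0.49.

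Other genes of the pathway, taken as a second list of 73 ligands, receptors, inhibitors, kinases and polarity genes, were compared in the same fit. Of these, 44 were tested, 25 had a higher and 19 a lower fitted level, and 0 passed the adjusted threshold by edgeR's quasi-likelihood test, with 6 at an unadjusted p under 0.05, or 13.6%, beside 10.8% of all genes. Their median log2 fold change was 0.09. The 4 with the smallest p were the short Groucho-family corepressor TLE5 (0.51 ± 0.19), the planar polarity cadherin CELSR1 (0.65 ± 0.25), the R-spondin RSPO4 (0.52 ± 0.20) and the kinase CSNK1D (0.42 ± 0.17). All 4 had transcripts of 58.2% GC or more, and the groups of TLE5 and CSNK1D overlapped. Of the 6 genes at an unadjusted p under 0.05 by edgeR's quasi-likelihood test, 5 were higher and 1 lower with relaxin-2. Groups did not overlap for 9 of the 44, or 20.5%, beside 21.4% of all genes.

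Genes widely used as readouts of β-catenin were taken as a list of 33, other than the members. Of the 22 tested, 14 had a higher and 8 a lower fitted level, with a median log2 fold change of 0.13. By edgeR's quasi-likelihood test 0 passed after adjustment, and 5 had an unadjusted p under 0.05, all higher, or 22.7%, beside 10.8% of all genes. Groups did not overlap for 6 of the 22, or 27.3%, beside 21.4% of all genes. The list was chosen with earlier results of these data known. The median transcript GC content of the 22 was 55.2%, beside 54.0% for the tested members. Their median deviation from the mean log2 level was highest in the relaxin-2 library 2 (0.18) and lowest in the untreated library 2 (-0.18). The part of GC content and of those libraries in the values of the targets was not tested. JUN, a subunit of the AP-1 transcription factor that many signals induce, had 75.9, 89.9 and 89.8 CPM in relaxin-2 cells, against 54.5, 68.3 and 68.9 CPM in untreated cells, with a log2 fold change of 0.41 ± 0.11. SOX9, a transcription factor of progenitor cells, had 17.8, 16.6 and 16.7 CPM in relaxin-2 cells, against 14.0, 14.0 and 13.9 CPM in untreated cells, with 0.29 ± 0.11.

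In JUN, SOX9 and EPHB3, a receptor for ephrins, every relaxin-2 library lay above every untreated one. EPHB3 had 2.28, 4.09 and 2.27 CPM in relaxin-2 cells, against 0.405, 1.49 and 1.67 CPM in untreated cells. Its log2 fold change was 1.25 ± 0.46, from 9 to 50 reads in each library. FOSL1, another AP-1 subunit, had 0.45 ± 0.18, and its groups overlapped. LGR5, a receptor for R-spondins, had at most 4 reads in a library, and the transcription factor ASCL2 had 0 in all 6.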

How the data were processed

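Per the labels' protocols, RNA was taken up in TRIzol and made into libraries with a kit for stranded total RNA. The authors deposited raw read counts for each gene, in a table per library with a column for either strand and one for both, made with STAR on hg38 per the submitters' processing notes. For STAR no version, and for the annotation no release, is given in the sources used here. The reverse column was used, since it held 17.8 to 19.8 times the reads of the forward one. The authors' merged count table equalled it for all 24635 gene IDs compared. STAR leaves multimapping reads (5.31% to 27.0% per library) out of the counts, and 17.5% to 32.0% of reads lay in no counted exon. Neither kind entered the library sizes.

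From these counts, genes passing edgeR's filterByExpr were scaled by TMM and compared in R 4.3.3 with the quasi-likelihood test of edgeR 4.0.16, two-sided and with Benjamini-Hochberg adjustment over 16740 genes, with treatment as the only term and all 6 libraries in 1 fit. At these depths (11939148 to 22426768 gene reads) log2 fold changes had standard errors of 0.0610 to 0.686 among the members and a median of 0.157 among all genes. GC content, exon length and coordinates came from GENCODE release 29 on GRCh38, with GC known for 99.6% of tested genes. GC and length offsets used natural splines with 4 degrees of freedom per library. The fit was also run on simulated counts, with the same gene proportions in every library apart from set changes. Those counts held no GC trend and no library that stood apart, so that run does not cover these features.

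The members, the other lists and the alternatives were chosen with earlier results of these data known. Every member was named by role. Values in each library are given for the 12 tested members with the smallest unadjusted p and for the most abundant member per kilobase of each role. Of the 2 other lists, the 4 genes with the smallest p are named, and LGR5, ASCL2, the marker genes and the pairs of relatives were named outside that rule after values were seen. The alternatives were DESeq2 1.42.0, RLE scaling, no filter, unstranded counts, the merged table, the offsets, leaving out each library or both libraries numbered 2, and a replicate block. Tables and figures were made with Python 3.11.15, pandas 2.3.3 and matplotlib 3.10.9.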

Additional observations from a re-analysis of the deposited data

How the results depend on the processing

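The direction of 18 of the 46 tested members held under all 14 alternatives, among them DVL1, BCL9L, FZD2, LRP5, DVL2, TLE3, ROR2, CTNNB1, APC and FZD6. The median log2 fold change of the members stayed within 0.00091 (GC content and length offsets) and 0.11 (replicate block). Causes of the shifts below were not tested. With no filter on low counts, 120 of 32406 genes passed edgeR's threshold, 2 of them members, and 10 members had an unadjusted p under 0.05 (20.8% of the members in that fit, beside 11.1% of all genes). With both libraries numbered 2 left out, 3 genes passed, 0 of them members, and 10 members did not overlap between groups. Leaving out 1 library at a time, 0 to 3 genes passed, 1 to 9 members had an unadjusted p under 0.05 (2.17% to 19.6%, beside 2.83% to 20.8% of all genes) and 6 to 20 did not overlap (13.0% to 43.5%, beside 25.7% to 46.9%). The groups share only the numbers 2 and 3, and the labels do not say whether these numbers pair the libraries. Deviations from the group means correlated at -0.326 between the libraries numbered 2 and at 0.125 between those numbered 3. These correlations cannot decide it, since each mean rests on 3 libraries and both libraries numbered 2 stood apart. In the fit with the replicate block 1 gene passed and 9 members had an unadjusted p under 0.05 (19.6%, beside 16.1% of all genes).

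Log2 fold changes of the other sign were as follows. TNKS2 was at 0.00036 with DESeq2, 0.00061 with RLE scaling, 0.011 with unstranded counts and 0.0014 with the merged table. With the GC content and length offsets FZD3 was at 0.077, FZD4 at 0.028, RYK at 0.036, CSNK1A1 at 0.053, BTRC at 0.031, LEF1 at 0.049, DKK1 at 0.10, TNKS at 0.094 and TNKS2 at 0.11. Those offsets put FZD5 at -0.00096, FZD8 at -0.51, WNT3 at -0.13, WNT5B at -0.24, WNT7B at -0.25, DVL3 at -0.013, AXIN1 at -0.091, AXIN2 at -0.066, TCF7L1 at -0.079, DKK3 at -0.19, ZNRF3 at -0.40, NKD1 at -0.40, CTNNBIP1 at -0.084 and PYGO2 at -0.11. With both libraries numbered 2 left out FZD3 was at 0.081, ROR1 at 0.19, WNT3 at -0.040, WNT5B at -0.066, WNT7B at -0.44, TCF7L1 at -0.37, DKK1 at 0.094, RNF43 at 0.017, ZNRF3 at -0.039 and NKD1 at -0.067. With the replicate block FZD4 was at 0.017, TCF7L2 at 0.086 and NKD1 at -0.091. Leaving out 1 library gave DKK1 -0.071 to 0.069, FZD3 -0.20 to 0.014, FZD4 -0.10 to 0.016, FZD5 -0.086 to 0.14, FZD7 -0.065 to 0.013, LEF1 -0.11 to 0.081, NKD1 -0.16 to 0.24, RNF43 -0.35 to 0.071, ROR1 -0.27 to 0.061, TCF7L1 -0.24 to 0.36, TCF7L2 -0.12 to 0.037, TNKS -0.090 to 0.019, TNKS2 -0.040 to 0.048, WLS -0.0031 to 0.070, WNT3 -0.029 to 0.079, WNT5B -0.039 to 0.30, WNT7B -0.25 to 0.92 and ZNRF3 -0.020 to 0.048.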

Other observations

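For most Wnt genes almost all reads lay on the gene's own strand. In 39 of the 49 members less than 1% of the reads over the gene were on the opposite strand. The members with over 5% there and at least 20 such reads were TCF7 at 77.3%, where SKP1 is annotated, RNF43 at 30.5%, where TSPOAP1-AS1 is annotated, and FZD4 at 20.4%, where PRSS23 is annotated. FZD5 at 11.7% and TCF7L1 at 11.4% had opposite-strand reads without an annotated gene there. No test was made of these reads.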
